A study of Mus musculus with 12 samples.

Results

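The TGF-beta and Smad pathway was examined through 10 genes in RNA from mouse natural killer (NK) cells: the ligand Tgfb1, the receptors Tgfbr1 and Tgfbr2, the signal carriers Smad2, Smad3 and Smad4, the feedback inhibitors Smad7 and Smurf2, and the corepressors Ski and Skil. They were taken by gene symbol from a deposited table of 55487 features. All 10 were found, and all 10 were among the 12364 genes kept for testing, those with a log2 CPM (CPM is the read count scaled to the size of the library) above 0 in at least 4 samples.

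NK cells are lymphocytes that kill target cells and secrete interferon gamma. The 12 samples formed 3 groups of 4. One group was unstimulated. The others had received an antibody to NK1.1, an activating surface receptor of NK cells, for 6 h. A yellow fluorescent protein (YFP) reporter of interferon gamma then divided them into cells without the signal (YFP-) and cells with it (YFP+). Both fractions share the 6 h time, so a fall or rise from YFP- to YFP+ below is a difference and not a sequence. All 3 groups shared the mouse strain B6.129S4-Ifngtm3.1Lky/J, a genotype given as mut/mut, and an exposure to IL-15 that the titles write as HD IL-15, so no sample without the reporter allele or without IL-15 entered a comparison. Each group held the replicate labels f2, m2, m3 and m4, and values below follow that order. Nothing in the labels says that these are separate animals or that a label marks the same animal in each group, so p-values measure the spread between these samples, which may be technical. Age, the number of mice and the time for which unstimulated samples were kept are not given in the sources used here. Against unstimulated samples, the antibody thus cannot be told apart from time in culture or handling.

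TGF-beta 1 is secreted in a latent form that has to be activated outside the cell. The active ligand binds the type II receptor TGFBR2, which recruits and phosphorylates the type I receptor TGFBR1. TGFBR1 phosphorylates Smad2 and Smad3, which join Smad4, enter the nucleus and act on transcription. Smad7 occupies the type I receptor and brings the ubiquitin ligase Smurf2 to it, while Ski and SnoN, the product of Skil, hold Smad complexes in a repressed state. In NK cells the pathway is known for limiting cytotoxicity and interferon gamma production.

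Library totals ran from 32.1 to 54.2 M reads, and each member had between 123 and 8714 reads in every library, so none was near the level of 3 reads (0.0553 to 0.0933 CPM) taken as the floor. Such a floor covers counting error only. Of the NK cell markers, 11 of 11 were above 1 CPM in all 12 samples, but their levels moved in both directions between groups. In the order unstimulated, YFP- and YFP+, Klrb1c, which encodes NK1.1, had means of 308, 75.3 and 6.50 CPM. Klrd1 also fell, with means of 385, 270 and 165 CPM. Gzmb rose, with means of 6165, 12850 and 24090 CPM, as did Tbx21, with means of 33.2, 80.9 and 85.7 CPM. Summed T cell markers reached 31.8 to 106 CPM, most of it Cd3g, Cd3d and Cd6. In the order unstimulated, YFP- and YFP+, Cd3g had means of 47.9, 32.5 and 20.7 CPM and Cd6 of 0.752, 13.4 and 21.7 CPM. Cd3e and Cd5 reached at most 1.49 and 1.12 CPM, and Cd4, Cd8a, Cd8b1 and Foxp3 at most 0.193 CPM. Summed myeloid markers, nearly all Cd68, ranged over 53.0 to 60.2 CPM (unstimulated), 27.5 to 44.4 CPM (YFP-) and 14.7 to 24.1 CPM (YFP+). Of the other 8 myeloid markers, Cd14 had means of 1.24, 0.718 and 0.322 CPM in that order of groups, Lyz2 reached at most 0.803 CPM and the rest at most 0.316 CPM, S100a9 being at 0. Of the 5 stromal markers only Pecam1 was above 1 CPM in every sample. B cell, platelet and red cell markers each summed to at most 4.19 CPM. Features like ribosomal RNA took 27.4 to 35.3% of the reads of unstimulated samples, 15.9 to 30.3% for YFP- and 13.7 to 29.8% for YFP+. The part of the marker sums in the differences below was not tested. In bulk RNA, fewer cells of a type and less RNA per cell cannot be told apart.

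The windows upstream of the ligand gene and of both receptor genes are shown because the means of these 3 genes moved most between the groups, the ligand upward and the receptors downward. Each window holds the 250 bases before a RefSeq transcription start (GRCm38.p6). Capitals mark, on either strand, the Sp1 box GGGCGG or the Smad-binding letters CAGAC, which do not occur together in any of the 3 windows, and the AP-1 letters TGANTCA were also searched on both strands.
Tgfb1, chr7:25686752-25687001, plus strand: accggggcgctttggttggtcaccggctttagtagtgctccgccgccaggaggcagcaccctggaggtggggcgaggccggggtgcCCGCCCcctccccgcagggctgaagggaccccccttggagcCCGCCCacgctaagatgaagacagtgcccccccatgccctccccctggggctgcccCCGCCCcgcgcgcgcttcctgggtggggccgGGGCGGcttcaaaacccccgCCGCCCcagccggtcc
Tgfbr1, first of its listed starts, chr4:47352972-47353221, plus strand: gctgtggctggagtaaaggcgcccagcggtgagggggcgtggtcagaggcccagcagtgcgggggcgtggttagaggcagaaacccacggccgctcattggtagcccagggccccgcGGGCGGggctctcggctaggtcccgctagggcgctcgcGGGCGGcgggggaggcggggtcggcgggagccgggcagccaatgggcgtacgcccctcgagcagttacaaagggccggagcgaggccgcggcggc
Tgfbr2, chr9:116175364-116175613, minus strand: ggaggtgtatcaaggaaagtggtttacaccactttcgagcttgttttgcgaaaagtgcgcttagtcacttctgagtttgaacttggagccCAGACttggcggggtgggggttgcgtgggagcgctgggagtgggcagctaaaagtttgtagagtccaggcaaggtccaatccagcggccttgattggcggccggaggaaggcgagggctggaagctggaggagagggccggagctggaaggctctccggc
The Tgfb1 window was 75.2% G and C and held 5 Sp1 boxes, and that of Tgfbr1 was 74.8% G and C with 2. The window of another listed start of Tgfbr1 (chr4:47385966-47386215, not shown) differed, at 52.8% G and C with no Sp1 box and 1 CAGAC. The Tgfbr2 window was 58.4% G and C, with no Sp1 box and 1 CAGAC. None of these windows held the AP-1 letters. Over 32851 windows of the same length, 32.7% held the Sp1 box, 42.2% CAGAC and 6.75% the AP-1 letters, and the median G and C content was 52.4%. Such matches describe letters and say nothing of a factor's binding. RefSeq windows were read for 6 of the 10 members, the others being Smad3, Smurf2 and Ski. None was read for Smad2, Smad4, Smad7 and Skil, so nothing is said here of the bases before their starts.

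Against unstimulated samples the called members were some higher and some lower. Between YFP+ and YFP- samples all called members were lower on the deposited scale, as were 2286 of all 2691 called genes. In YFP- against unstimulated samples 6 of 10 members passed an adjusted p of 0.05 in limma, 3 higher (Tgfb1, Smad7, Skil) and 3 lower (Tgfbr2, Smad3, Smad4). Over all 12364 genes 51.1% passed in that comparison, 30.2% higher and 20.9% lower, so the members' share was near the background. In YFP+ against unstimulated samples 8 of 10 passed, 3 higher (Tgfb1, Smad7, Ski) and 5 lower (Tgfbr1, Tgfbr2, Smad3, Smad4, Smurf2), beside 60.8% of all genes, 27.5% higher and 33.3% lower. In YFP+ against YFP- samples 5 of 10 passed, all lower (Tgfbr1, Tgfbr2, Smad7, Smurf2, Skil), beside 21.8% of all genes, 3.28% higher and 18.5% lower. The members' median log2 changes were 0.08, -0.46 and -0.56 in these 3 comparisons, and those of all genes 0.14, -0.03 and -0.19. The comparisons share samples and are given side by side.

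**Figure D1:**
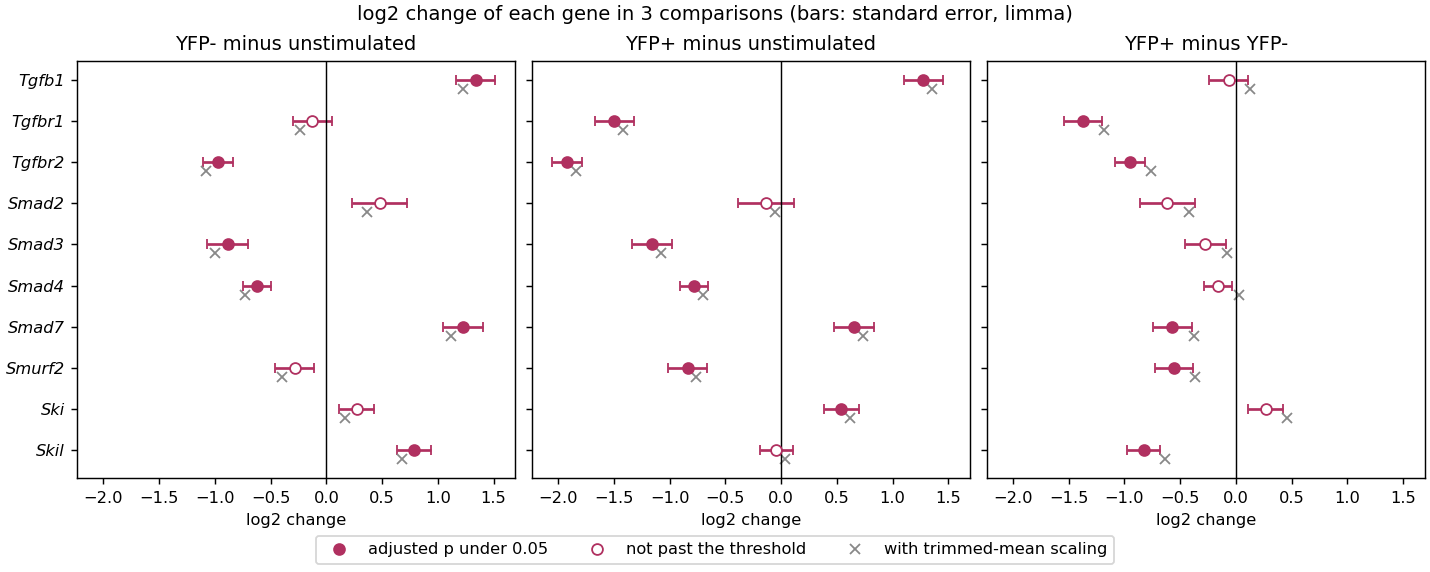
Change of each of the 10 genes between groups (x axis: log2 change, difference of group means of log2 CPM, points with bars: limma estimate and standard error, crosses: the estimate with trimmed-mean scaling of the samples). Filled points passed an adjusted p of 0.05 as deposited: 6, 8 and 5 genes from left to right.

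The scale of the samples bears on the last of these comparisons. The median change of all genes in YFP+ against YFP- samples was -0.19 as deposited and 0.00 after trimmed-mean scaling, which sets the samples level on the bulk of their genes. Of all calls in this comparison 15.1% were higher as deposited and 41.0% with trimmed-mean scaling. Tgfbr1, Tgfbr2 and Skil were called lower under both scales. The calls of Smad7 and Smurf2 were lost with trimmed-mean scaling, and Ski was called higher there. In YFP- against unstimulated samples the median moved from 0.14 to 0.02, and 6 members were called under both scales. Leaving the ribosomal RNA-like features out of the library totals moved the median of YFP+ against unstimulated samples from -0.03 to -0.21, and 7 members were called.

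**Figure D2:**
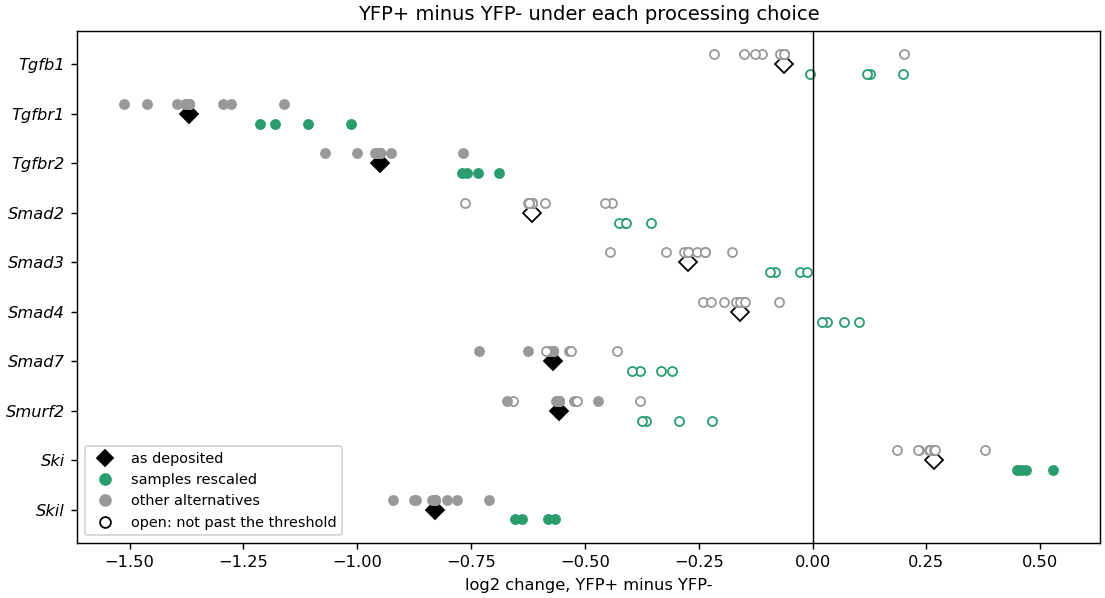
YFP+ minus YFP- change of each gene (x axis: log2 change) under the deposited scale (diamonds), under 4 fits with rescaled samples (green) and under the other alternatives (grey), with open symbols where the adjusted p was not under 0.05. Tgfbr1, Tgfbr2 and Skil are filled throughout, Smad7 and Smurf2 are open in all 4 rescaled fits, and Ski is filled in those alone.

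The ligand gene Tgfb1 (ENSMUSG00000002603, chromosome 7, 25687002 to 25705077, plus strand, positions here and below from GENCODE M21 on GRCm38) was higher in both stimulated groups. It stood at 66.7, 61.2, 71.2 and 65.7 CPM in unstimulated samples, at 197, 147, 170.5 and 158.5 CPM in YFP- and at 109, 156, 186 and 209 CPM in YFP+ samples. Every stimulated sample lay above every unstimulated one, and the YFP- and YFP+ samples overlapped. Against unstimulated samples its log2 level rose by 1.34 in YFP- (2.53-fold, SE 0.17, limma adjusted p = 3.5e-05) and by 1.28 in YFP+ (2.42-fold, SE 0.17, limma adjusted p = 2.6e-05). YFP+ minus YFP- was -0.06 (SE 0.17, limma adjusted p = 0.83). That difference took the other sign with trimmed-mean scaling (0.13) and without the label f2, whose YFP+ sample was the lowest of its group (0.20).

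Both receptor genes were lowest in YFP+ samples, and only Tgfbr2 was also called lower in YFP- than in unstimulated samples. Tgfbr2 (ENSMUSG00000032440, chromosome 9, 116084293 to 116175360, minus strand) encodes the receptor that binds the ligand first. It stood at 105.5, 98.6, 114 and 106 CPM in unstimulated samples. In YFP- samples it was at 63.3, 56.8, 51.3 and 46.6 CPM, and in YFP+ samples at 22.4, 30.1, 29.5 and 31.0 CPM. The 3 groups did not overlap, and the YFP- samples lay between the other groups. Tgfbr2 fell by 0.97 in log2 in YFP- against unstimulated samples (SE 0.14, limma adjusted p = 6.1e-05). From YFP- to YFP+ it fell by 0.95 (SE 0.14, limma adjusted p = 0.0003), so that YFP+ samples were 3.78-fold below unstimulated ones (log2 change -1.92, limma adjusted p = 6.1e-08). With trimmed-mean scaling the difference of YFP+ and YFP- was -0.76 (limma adjusted p = 0.0014).

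Tgfbr1 (ENSMUSG00000007613, chromosome 4, 47353222 to 47414931, plus strand) encodes the kinase that phosphorylates Smad2 and Smad3. Its levels were 8.16, 10.3, 9.11 and 12.98 CPM in unstimulated samples and 9.50, 10.05, 7.81 and 9.42 CPM in YFP- samples, ranges that overlapped. In YFP+ samples it was at 3.03, 3.32, 4.06 and 3.83 CPM, from 123 to 180 reads, below every other sample. The log2 change of YFP- against unstimulated samples was -0.12 (SE 0.17, limma adjusted p = 0.57). Against unstimulated samples YFP+ was 2.82-fold lower (SE of the log2 change 0.17, limma adjusted p = 5.2e-06), and against YFP- it was 2.59-fold lower (log2 change -1.37, SE 0.17, limma adjusted p = 0.00012). The latter log2 change was -1.18 with trimmed-mean scaling (limma adjusted p = 0.00054).

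**Figure D3:**
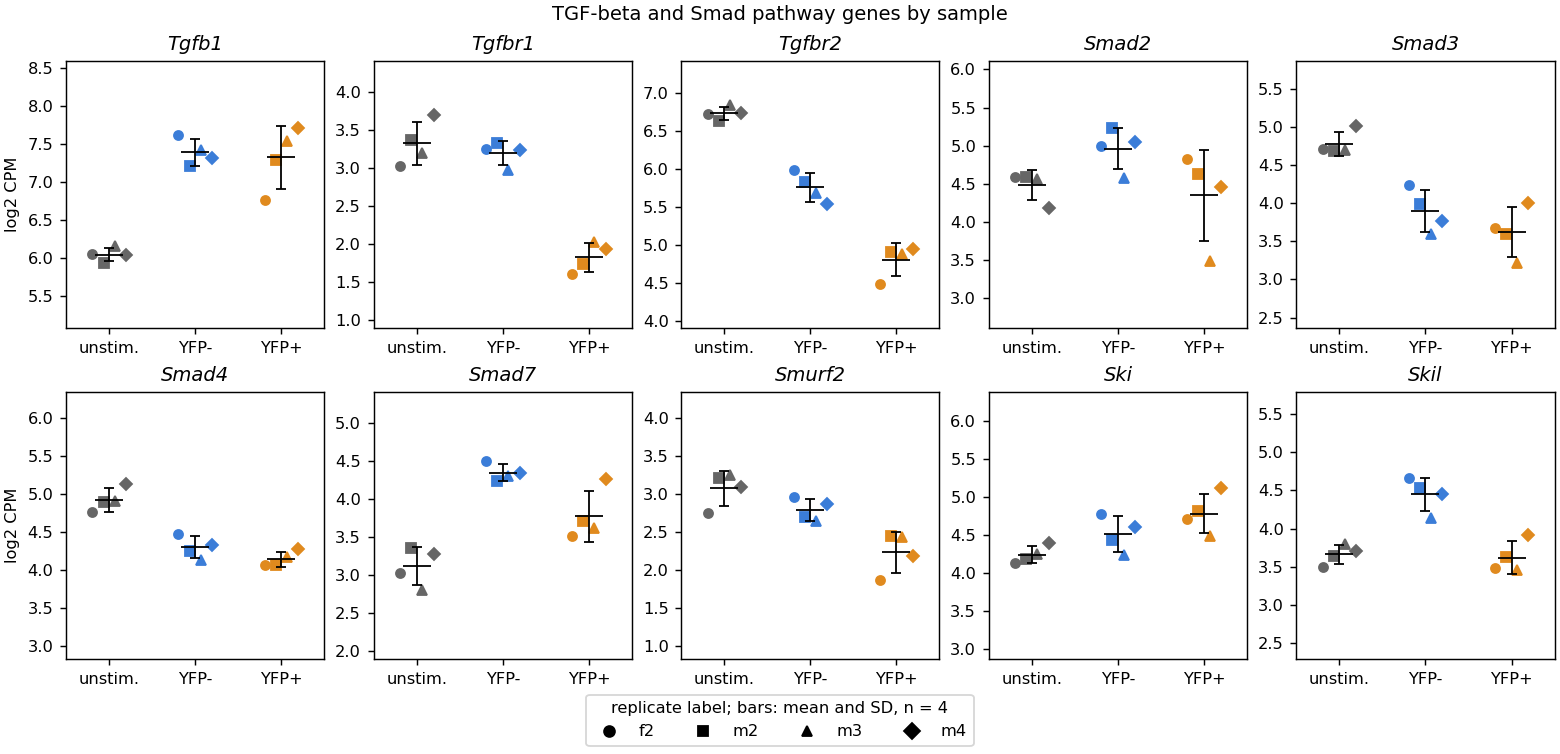
Level of each gene in every sample (y axis: deposited log2 CPM, each panel spanning the same number of log2 units, symbols: replicate labels, horizontal bars: group mean with SD, n = 4). Tgfb1 and Smad7 lie higher in stimulated samples, Tgfbr2 is highest in unstimulated and lowest in YFP+ samples, Tgfbr1 is lower in YFP+ samples, and Skil is highest in YFP- samples.

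Of the Smads activated by the receptor, Smad3 was lower in both stimulated groups and Smad2 gave no call. Smad3 (ENSMUSG00000032402, chromosome 9, 63646767 to 63757994, minus strand) binds DNA directly. It stood at 26.3, 25.8, 25.9 and 32.4 CPM in unstimulated samples, at 18.8, 15.8, 12.1 and 13.6 CPM in YFP- and at 12.7, 12.1, 9.25 and 16.02 CPM in YFP+ samples. All unstimulated samples lay above all stimulated ones, which overlapped each other. Smad3 fell by 0.88 in log2 in YFP- (SE 0.18, limma adjusted p = 0.0013) and by 1.16 in YFP+ samples (SE 0.18, limma adjusted p = 9.3e-05) against unstimulated ones. YFP+ minus YFP- was -0.27 (SE 0.18, limma adjusted p = 0.31).

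Smad2 (ENSMUSG00000024563, chromosome 18, 76241580 to 76310963, plus strand) is a close relative of Smad3, and its main protein form does not bind DNA by itself. It was at 24.1, 24.1, 23.6 and 18.2 CPM in unstimulated, 31.9, 37.4, 23.9 and 33.1 CPM in YFP- and 28.2, 24.7, 11.2 and 21.9 CPM in YFP+ samples. The YFP+ sample labelled m3 was the lowest of all 12, and the groups overlapped. The log2 changes were 0.48 in YFP- against unstimulated samples (SE 0.25, limma adjusted p = 0.12), -0.14 in YFP+ against unstimulated samples (limma adjusted p = 0.66) and -0.62 in YFP+ against YFP- samples (limma adjusted p = 0.097). Without the label m3 the first was 0.63 (limma adjusted p = 0.0086) and the second turned to 0.18 (limma adjusted p = 0.38). The first was also called in a fit of those 8 samples alone (limma adjusted p = 0.021) and with sample weights (limma adjusted p = 0.019), and the last without the ribosomal RNA-like features (limma adjusted p = 0.031). The ratio of Smad3 to Smad2 per exon length had geometric means of 1.95, 0.756 and 0.958 over the unstimulated, YFP- and YFP+ samples, a description without a test.

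Smad4 (ENSMUSG00000024515, chromosome 18, 73639009 to 73703780, minus strand), the partner that the activated Smads share, stood at 27.1, 29.6, 29.95 and 34.9 CPM in unstimulated samples. It was at 22.3, 19.1, 17.6 and 20.2 CPM in YFP- and at 16.7, 16.7, 17.9 and 19.4 CPM in YFP+ samples. Unstimulated samples were above all others, and both stimulated groups overlapped. Smad4 fell by 0.62 in log2 in YFP- (SE 0.13, limma adjusted p = 0.0011) and by 0.78 in YFP+ samples (SE 0.13, limma adjusted p = 0.00011) against unstimulated ones. YFP+ minus YFP- was -0.16 (limma adjusted p = 0.40) and changed sign with trimmed-mean scaling (0.03).

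The feedback inhibitor Smad7 (ENSMUSG00000025880, chromosome 18, 75367529 to 75395935, plus strand) was higher in both stimulated groups. Its levels were 8.16, 10.2, 6.98 and 9.65 CPM in unstimulated, 22.6, 18.8, 19.7 and 20.2 CPM in YFP- and 11.4, 13.1, 12.2 and 19.1 CPM in YFP+ samples. No stimulated sample reached down to the unstimulated range. The YFP+ sample labelled m4 lay inside the YFP- range and the other 3 below it. Against unstimulated samples Smad7 rose by 1.23 in log2 in YFP- (SE 0.18, limma adjusted p = 8.2e-05) and by 0.66 in YFP+ samples (SE 0.18, limma adjusted p = 0.0057). It fell by 0.57 from YFP- to YFP+ (SE 0.18, limma adjusted p = 0.035), a call lost with trimmed-mean scaling (-0.38, limma adjusted p = 0.16). It was also lost without the label f2 (-0.43, limma adjusted p = 0.18), without m2 (-0.59, limma adjusted p = 0.12), without m3 (-0.53, limma adjusted p = 0.10) and in a fit of those 8 samples alone (limma adjusted p = 0.061). The ratio of Smad7 to Tgfbr1 per exon length, the inhibitor to the receptor it occupies, had geometric means of 1.25, 3.20 and 5.58 over the unstimulated, YFP- and YFP+ samples, given without a test.

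Smurf2 (ENSMUSG00000018363, chromosome 11, 106820066 to 106920715, minus strand), the ligase that Smad7 brings to the receptor, was not called higher in any comparison. It stood at 6.69, 9.23, 9.49 and 8.48 CPM in unstimulated, 7.74, 6.45, 6.24 and 7.26 CPM in YFP- and 3.64, 5.42, 5.39 and 4.54 CPM in YFP+ samples. The YFP+ samples lay below all others, while unstimulated and YFP- samples overlapped. Smurf2 fell by 0.84 in log2 in YFP+ against unstimulated samples (SE 0.17, limma adjusted p = 0.00083). In YFP- against unstimulated samples the change was -0.28 (SE 0.17, limma adjusted p = 0.19), and without the label f2 it was -0.45 (limma adjusted p = 0.046). From YFP- to YFP+ it fell by 0.56 (SE 0.17, limma adjusted p = 0.035), a call lost with trimmed-mean scaling (-0.37, limma adjusted p = 0.15). It was also lost without f2 (-0.38, limma adjusted p = 0.14), without m2 (-0.66, limma adjusted p = 0.077), without m4 (-0.52, limma adjusted p = 0.17) and in a fit of those 8 samples alone (limma adjusted p = 0.067). Smurf2 was the 1 member whose annotated exons, on either strand, overlapped another gene, a microRNA gene over 58 bases that had at most 1 read.

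The corepressors Skil and Ski, which are related, followed different patterns. Skil (ENSMUSG00000027660, chromosome 3, 31095058 to 31122577, plus strand) encodes SnoN. It stood at 11.3, 12.4, 13.9 and 13.1 CPM in unstimulated samples and at 25.2, 23.2, 17.6 and 21.98 CPM in YFP- samples. In YFP+ samples it was at 11.1, 12.4, 10.97 and 15.1 CPM. The YFP- samples lay above all others, and the unstimulated and YFP+ ranges overlapped. Skil rose by 0.79 in log2 in YFP- against unstimulated samples (SE 0.15, limma adjusted p = 0.00075) and fell by 0.83 from YFP- to YFP+ (SE 0.15, limma adjusted p = 0.0016, and -0.64 with trimmed-mean scaling). YFP+ minus unstimulated was -0.04 (SE 0.15, limma adjusted p = 0.83) and took the other sign with trimmed-mean scaling (0.04) and without the label m3 (0.06).

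Ski (ENSMUSG00000029050, chromosome 4, 155154075 to 155222592, minus strand) stood at 17.6, 18.2, 19.0 and 20.99 CPM in unstimulated, 27.5, 21.7, 18.8 and 24.4 CPM in YFP- and 26.2, 28.0, 22.5 and 34.7 CPM in YFP+ samples. The YFP+ samples lay above all unstimulated ones, and the YFP- samples overlapped both groups. Ski rose by 0.54 in log2 in YFP+ against unstimulated samples (SE 0.16, limma adjusted p = 0.0086). That call was lost without the label m2 (0.51, limma adjusted p = 0.059) and without the ribosomal RNA-like features (0.35, limma adjusted p = 0.056). The change was 0.27 in YFP- against unstimulated samples (limma adjusted p = 0.16, and 0.022 with sample weights) and 0.27 in YFP+ against YFP- samples (limma adjusted p = 0.25), the latter 0.46 with trimmed-mean scaling (limma adjusted p = 0.036). The ratio of Skil to Ski per exon length had geometric means of 0.384, 0.547 and 0.256 in the same order of groups, given without a test.

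Levels of different genes were compared per length, as CPM divided by the length of annotated exon in kilobases (RPKM). In unstimulated samples Tgfb1 (13.1 ± 0.81 RPKM, SD, n = 4) and Tgfbr2 (12.97 ± 0.79 RPKM) were highest and overlapped, followed by Smad4 (8.19 ± 0.89 RPKM), Smad3 (4.98 ± 0.58 RPKM) and Ski (3.41 ± 0.27 RPKM), each clear of the next. Smad2 (2.56 ± 0.33 RPKM), Smad7 (1.94 ± 0.33 RPKM), Tgfbr1 (1.55 ± 0.32 RPKM), Smurf2 (1.38 ± 0.21 RPKM) and Skil (1.31 ± 0.11 RPKM) made up the lower end, each overlapping its neighbour. In YFP- samples Tgfb1 (33.4 ± 4.20 RPKM) stood apart from Tgfbr2 (6.66 ± 0.88 RPKM), and the genes from Tgfbr2 down to Skil (2.27 ± 0.33 RPKM) each overlapped the next. In YFP+ samples Ski (5.01 ± 0.92 RPKM) and Smad4 (4.76 ± 0.34 RPKM) came after Tgfb1 (32.7 ± 8.58 RPKM), and Tgfbr1 was the lowest of the 10 at 0.545 ± 0.072 RPKM, overlapping Smurf2 (0.770 ± 0.14 RPKM). The ligand gene stood level with its type II receptor gene in unstimulated samples and above it in every stimulated sample.

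**Figure D4:**
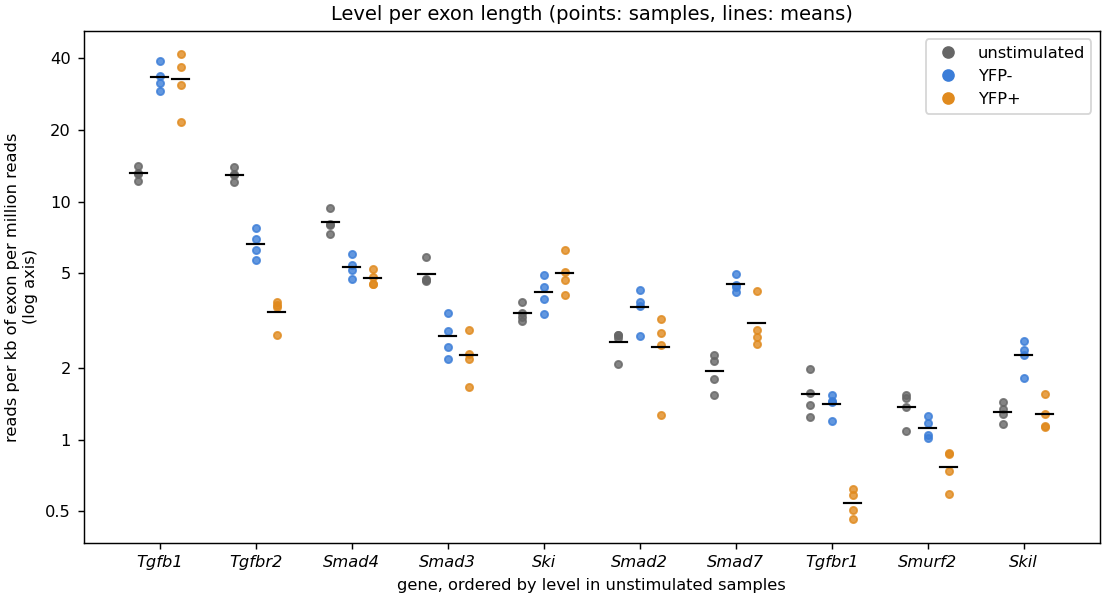
Level per exon length (y axis: RPKM, log scale, points: samples, lines: group means) for the 10 genes, ordered by their level in unstimulated samples. Tgfb1 and Tgfbr2 coincide in unstimulated samples, at means of 13.1 and 12.97 RPKM, and separate in both stimulated groups.

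For the members whose group means spanned at least 1 in log2, the 3 genes with the most similar profile were sought among 8915 genes with a mean log2 CPM of at least 2. Likeness was the root mean square difference over the 12 samples of log2 CPM after each gene's mean was subtracted. For Tgfbr2 these were Map3k3 (0.124), Mknk2 and Cenpa (0.130), for Tgfbr1 Fryl (0.158), Satb1 and Rbl2 (0.171), and for Tgfb1 Ier5 (0.168), Zfand5 and Jak2 (0.175). For Smad3 they were Dcaf5 (0.163), Rnf44 and Card19 (0.178), and for Smad7 Map1lc3a (0.183), Junb and Zhx2 (0.206).

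The rest of the pathway was read from a list of 64 further genes, of which 44 could be tested. The other 20 had at most 57 reads in any library, among them the ligand Tgfb2, the co-receptors Tgfbr3 and Eng, and the inhibitory Smad6. Of the 44, 6 (Acvr1b, Acvrl1, Inhba, Lrrc32, Tgfb3 and Tgif2) were kept by the low-value filter only because of the groups where they are high, so their values are given below without a test. In YFP- against unstimulated samples 24 of the 44 passed (14 higher, 10 lower, median log2 change 0.16). In YFP+ against unstimulated samples 23 passed (9 higher, 14 lower, median -0.13), and in YFP+ against YFP- samples 11 (1 higher, 10 lower, median -0.26). Without those 6 genes 18 of 38 (11 higher, 7 lower), 18 (7 higher, 11 lower) and 10 (1 higher, 9 lower) passed. Over all genes 51.1%, 60.8% and 21.8% passed in these comparisons. Single labels moved 2 of these counts by more than 1.5 times, to 15 without m4 in the first comparison and to 7, 6 and 7 without f2, m2 and m4 in the last.

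**Figure D5:**
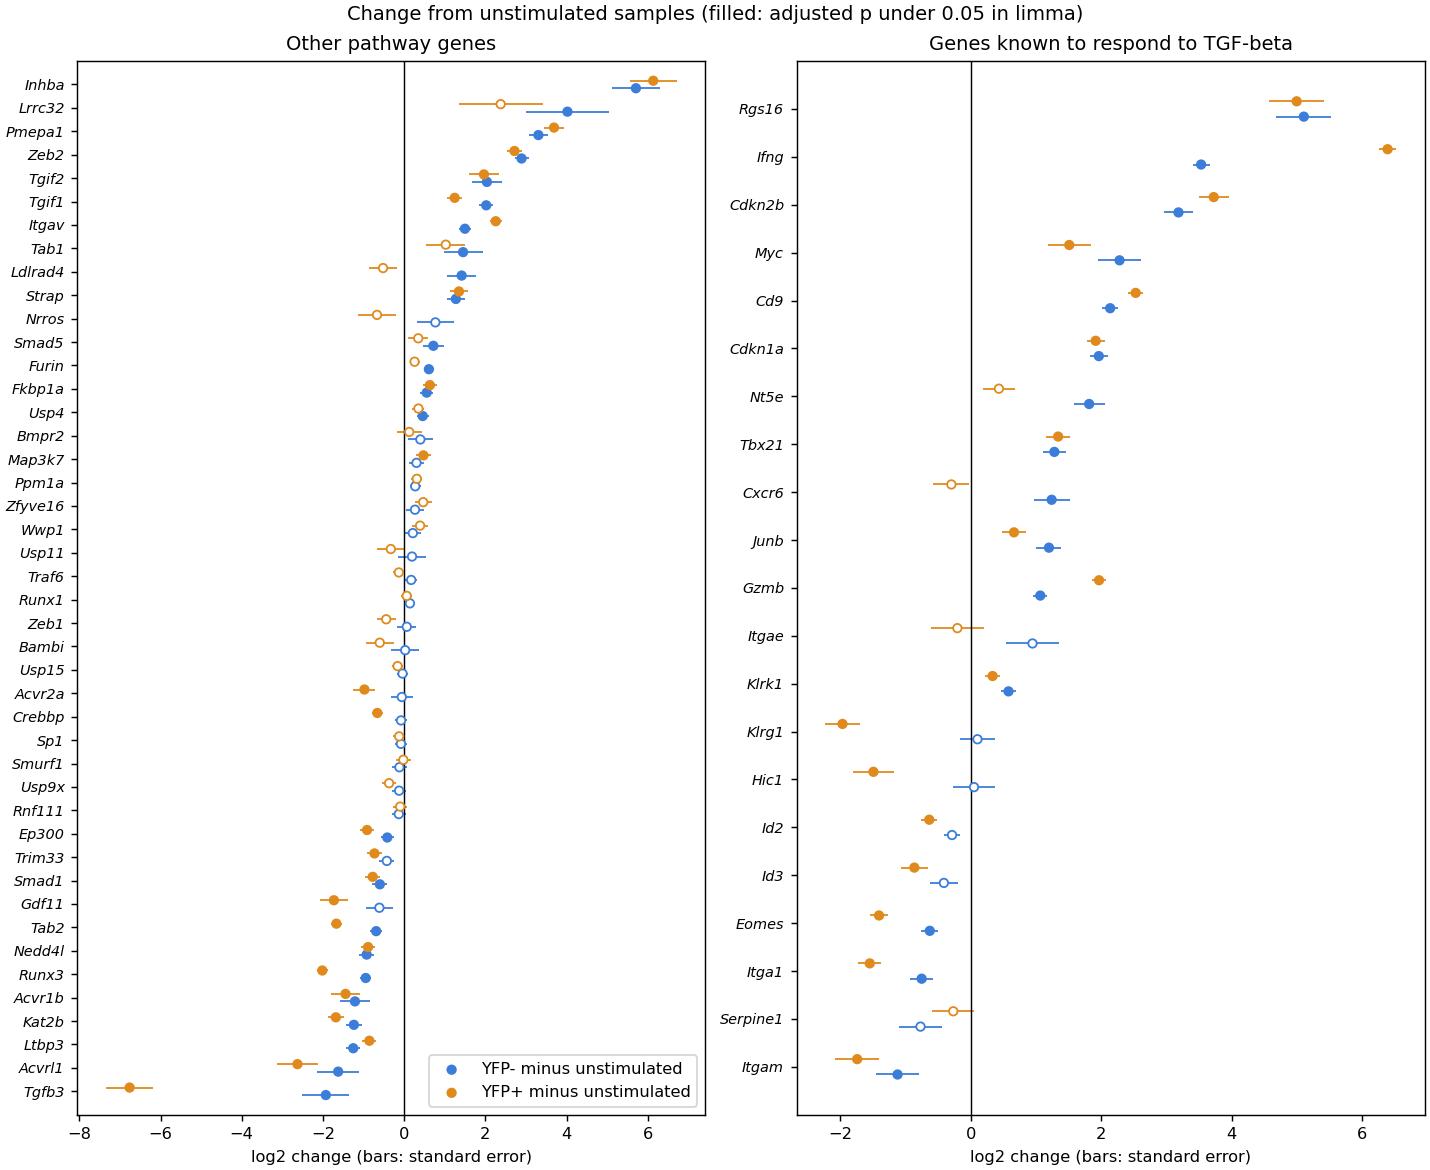
Change from unstimulated samples of the other pathway genes (left) and of genes known to respond to TGF-beta (right) in YFP- and YFP+ samples (x axis: log2 change in limma, bars: standard error, filled: adjusted p under 0.05). Inhba, Pmepa1 and Zeb2 lie far to the right and Tgfb3 far to the left among the pathway genes, and the values of Inhba and Tgfb3 rest on groups with 1 read or none. Filled points of Acvr1b, Acvrl1, Inhba, Lrrc32, Tgfb3, Tgif2 and Cdkn2b are no test results, as the filter kept these genes only where high.

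Among the other ligands, Tgfb3 and Inhba went opposite ways. Tgfb3 had 59, 48, 59 and 34 reads in unstimulated samples, 29, 28, 6 and 12 reads in YFP- samples and 0 reads in all 4 YFP+ samples. In unstimulated samples its mean lay 14.3-fold above the highest floor of 3 reads per YFP+ library (0.0933 CPM), and in YFP- samples 4.30-fold above it. These are lower bounds for the fold between group means. Single samples lay closer to that floor, at 1.05 CPM in unstimulated m4 and 0.138 CPM in YFP- m3. Inhba, which encodes the activin A subunit, had 0, 1, 0 and 0 reads in unstimulated samples. It had 32, 33, 46 and 48 reads in YFP- samples and 65, 121, 17 and 38 reads in YFP+ samples. From pooled reads the ratio of YFP- to unstimulated samples was 127. This ratio rests on 1 unstimulated read, takes no account of the spread between samples and is not a test. Gdf11, a further ligand of the family, fell by 1.73 in log2 in YFP+ against unstimulated samples (limma adjusted p = 0.00054).

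Of 11 genes that hold or release latent TGF-beta, 5 were tested, and the 4 named here did not share a course. Itgav, an integrin subunit that takes part in releasing the active ligand, had means of 17.7, 50.0 and 85.8 CPM in unstimulated, YFP- and YFP+ samples. The 3 groups did not overlap, and YFP+ exceeded YFP- by 0.76 in log2 (SE 0.15, limma adjusted p = 0.0023). Lrrc32, whose product GARP tethers latent TGF-beta to the cell surface, had means of 0.406, 3.34 and 1.14 CPM, with 0 to 39 reads per unstimulated library. Every YFP- sample was above every unstimulated one, while the YFP+ samples overlapped both groups. Nrros, which also tethers latent TGF-beta, fell by 1.44 from YFP- to YFP+ (limma adjusted p = 0.041), and Ltbp3, a latent TGF-beta binding protein, fell from 16.6 to 7.08 CPM in YFP- samples (limma adjusted p = 5.6e-05).

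Of 11 further receptors and co-receptors, 5 were tested, and 2 of these had been kept by the filter through unstimulated samples. Acvrl1, a type I receptor, had means of 2.32, 1.003 and 0.386 CPM in unstimulated, YFP- and YFP+ samples. Acvr1b, the activin type I receptor, had means of 1.92, 0.889 and 0.705 CPM. For both genes the YFP- samples overlapped the unstimulated ones and the YFP+ samples lay below them. Of the rest, Acvr2a fell by 0.98 in log2 in YFP+ against unstimulated samples (limma adjusted p = 0.0066). It fell by 0.92 from YFP- to YFP+ (limma adjusted p = 0.028), a call lost with trimmed-mean scaling (limma adjusted p = 0.095). Bmpr2 and Bambi gave no call in any comparison.

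Among the proteins that act on Smads in the cytoplasm, the inhibitor Pmepa1 had means of 1.40, 14.2 and 18.9 CPM in the order unstimulated, YFP- and YFP+. Every stimulated sample was above every unstimulated one, and YFP+ against unstimulated samples gave a log2 change of 3.69 (SE 0.24, limma adjusted p = 3.6e-08). Ldlrad4, an inhibitor related to Pmepa1, followed another course, with means of 4.01, 11 and 3.12 CPM. It fell by 1.94 from YFP- to YFP+ (SE 0.35, limma adjusted p = 0.0016), and YFP+ minus unstimulated was -0.52 (limma adjusted p = 0.22).

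Of 10 tested nuclear partners of the Smads, 3 were higher and 3 lower in YFP- against unstimulated samples. In YFP+ against unstimulated samples 3 were higher and 4 lower. The higher ones were Tgif1, Tgif2 and Zeb2 in both comparisons. The filter had kept Tgif2 only through stimulated samples, so its call is counted here but is not a test result. The shares of all genes were 30.2% higher and 20.9% lower in the first comparison and 27.5% higher and 33.3% lower in the second. These counts, Tgif2 included, were thus near the background. Zeb2, a repressor that binds Smads, had means of 4.94, 37.1 and 32.5 CPM, and its log2 change in YFP- samples was 2.89 (SE 0.17, limma adjusted p = 4.7e-08). The corepressor gene Tgif2 had means of 0.330, 1.36 and 1.32 CPM. Runx3, a lineage factor that cooperates with Smads, had means of 129, 67.4 and 31.9 CPM with no overlap between groups. It fell by 0.95 in YFP- against unstimulated samples (limma adjusted p = 6.7e-05) and by 1.07 from YFP- to YFP+ (SE 0.13, limma adjusted p = 0.00012). Kat2b, an acetyltransferase that acts as a coactivator, fell by 1.24 in YFP- samples (limma adjusted p = 0.00023) and by 1.68 in YFP+ samples (limma adjusted p = 8.8e-06) against unstimulated ones.

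A list of 24 genes known to respond to TGF-beta was read beside the pathway, and 21 were tested. Of the 13 tested genes listed as induced by TGF-beta, 7 were higher and 1 lower in YFP- against unstimulated samples. In YFP+ against unstimulated samples 5 were higher and 4 lower. Those 4 were Itga1, Hic1, Id2 (log2 change -0.64) and Id3 (-0.87). The direction in which TGF-beta moves the Id genes differs between cell types, so Id2 and Id3 may not belong in this group. That doubt was raised after their values were seen, and both genes stay in the counts. Of the 8 tested genes that TGF-beta is known to lower in lymphocytes, 5 were higher and 2 lower in YFP-, and 5 higher and 3 lower in YFP+. Over all genes 30.2% were higher and 20.9% lower in YFP-, and 27.5% higher and 33.3% lower in YFP+. The median log2 change of the 21 was 1.06 in YFP-, 0.33 in YFP+ and -0.45 between YFP+ and YFP- samples, beside 0.14, -0.03 and -0.19 over all genes. The filter had kept Cdkn2b and Itgae only through the groups where they are high. Cdkn2b is counted among the 7 and the 5 induced genes that were higher, but its call is not a test result. Without Cdkn2b and Itgae 11 of 19 were higher and 3 lower in YFP-, and 9 higher and 7 lower in YFP+. The medians of the 19 were 1.06, 0.33 and -0.45 in the same order of comparisons. These genes also answer to other signals, and 4 of them are NK markers too. Ifng carries the reporter that the sort used, so its level between YFP- and YFP+ was fixed by the design. The sort also bears on its level in each fraction against unstimulated samples. Ifng is nevertheless counted among the 5 higher genes in YFP- and in YFP+, and in all these medians.

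In the induced group, the signal regulator Rgs16 had means of 17.4, 582 and 630 CPM in unstimulated, YFP- and YFP+ samples (limma adjusted p = 7.4e-07 for YFP- against unstimulated). The cell cycle inhibitor Cdkn2b had means of 0.742, 6.60 and 9.72 CPM. The tetraspanin gene Cd9 had means of 83.3, 366 and 480.5 CPM and rose by 0.39 from YFP- to YFP+ (limma adjusted p = 0.030). As with Skil, 2 others were called higher in YFP- and not in YFP+ against unstimulated samples. Nt5e, the ectoenzyme CD73, had means of 2.64, 9.50 and 3.59 CPM and fell by 1.38 from YFP- to YFP+ (SE 0.24, limma adjusted p = 0.0011). With trimmed-mean scaling it was also called higher in YFP+ against unstimulated samples (0.51, limma adjusted p = 0.037). Cxcr6, a chemokine receptor of tissue-resident lymphocytes, had means of 50.6, 119 and 44.2 CPM and fell by 1.54 (SE 0.28, limma adjusted p = 0.0014). Itga1, the integrin CD49a, stepped down from 26.4 to 15.9 and 9.10 CPM, and fell by 0.75 in YFP- against unstimulated samples (limma adjusted p = 0.0027). Hic1, a transcriptional repressor, had means of 7.11, 6.97 and 2.56 CPM and fell by 1.54 from YFP- to YFP+ (limma adjusted p = 0.0036).

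In the group that TGF-beta is known to lower, Gzmb, the cytotoxic protease granzyme B, stood at 6165 CPM in unstimulated samples on average. It rose by 1.06 in YFP- against unstimulated samples (limma adjusted p = 5.2e-06) and by 0.90 from YFP- to YFP+ (limma adjusted p = 9.9e-05). Reads of Gzmb may be shared with related granzyme genes. Myc, a growth regulator, had means of 33.5, 166 and 105 CPM, and rose by 2.28 in YFP- against unstimulated samples (limma adjusted p = 7.4e-05). Klrg1, an inhibitory receptor, had means of 71.3, 77.1 and 18.6 CPM, so that, as for Tgfbr1, the YFP+ samples lay below the other 8. It fell by 2.07 from YFP- to YFP+ (SE 0.27, limma adjusted p = 0.00013). Eomes, an NK lineage factor, had means of 108, 70.5 and 40.7 CPM and fell by 1.41 in YFP+ against unstimulated samples (limma adjusted p = 8.5e-07). Itgam, the integrin CD11b of mature NK cells, had means of 6.83, 3.19 and 2.21 CPM. It fell by 1.12 in YFP- (limma adjusted p = 0.013) and by 1.74 in YFP+ samples (limma adjusted p = 0.00047) against unstimulated ones.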

How the data were processed

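RNA of 12 mouse NK cell samples was sequenced from SMARTer Ultra Low libraries, per the labels' protocols. Per the submitters' processing notes, bcl2fastq, STAR 2.7.9a, Subread, featureCounts 2.0.3 and the build GRCm38 were used. Their settings, the annotation and the use of strand are not given in the sources used here. The authors deposited 1 table of log2 CPM (counts scaled to library size) per feature and sample, and the values fit a prior of 0.5 reads. After 287 repeated lines were dropped, 55487 features remained. From the library totals in the values, 100% of them came out as whole reads within 1e-06 in log2, and CPM and RPKM were recomputed from those reads.

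Groups follow the labels. Log2 CPM was fitted in limma 3.58.1 (R 4.3.3) with 1 coefficient per group over all 12 samples and an intensity trend, and p-values were adjusted by Benjamini-Hochberg over all 12364 genes kept. A call is an adjusted p under 0.05. Voom weights on the recovered reads together with trimmed-mean scaling, an alternative chosen after seeing the data, called 1290 genes higher and 1639 lower in YFP+ against YFP- samples. Exon lengths and positions came from GENCODE M21, which matched 99.5% of features, and promoters from RefSeq (GRCm38.p6).

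The members and gene lists were chosen with earlier results of these data known. Beside the 10 members, the text takes its names from up to 5 called genes with the largest rise and fall per list and comparison, the 3 most similar genes per member, and the highest cell type markers. Markers beyond the highest of each list, and the untested Tgfb2, Tgfbr3, Eng and Smad6, were chosen after their values were seen. The same holds for Acvr2a, Bmpr2, Bambi, Tgif1, Id2 and Id3.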

Additional observations from a re-analysis of the deposited data

Results flagged for a closer look

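In 38 genes (the members and the genes of both lists named for the size of their change), each group of 4 samples was examined. A sample was sought whose gap to the nearest other sample was large against the range of the group (Dixon's criterion, 95% level). Of 114 sets 9 passed, where 5.7 would pass by chance at 1 in 20, and 3 of the 9 were members.

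Tgfbr2 in YFP+ samples had f2 lowest at 4.49 log2 CPM against 4.88 to 4.95 in the others, a gap of 0.848 of the range. Without the label f2, Tgfbr2 was still called lower in YFP+ against YFP- samples. Smad2 in unstimulated samples had m4 lowest at 4.19 log2 CPM against 4.56 to 4.59 (gap 0.917). Smad3 in unstimulated samples had m4 highest at 5.02 log2 CPM against 4.69 to 4.72 (gap 0.911). The same sample, unstimulated m4, was also lowest for the tethering gene Nrros, at 4.66 log2 CPM against 6.24 to 6.53 (gap 0.849).

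Among the other list genes, Inhba had its 1 unstimulated read in m2 (gap 1). Pmepa1 was highest in unstimulated m2, at 0.76 log2 CPM against 0.39 to 0.41 (gap 0.951). Kat2b was lowest in unstimulated f2, at 2.13 log2 CPM against 2.68 to 2.79 (gap 0.83), and highest in YFP+ m3, at 1.26 log2 CPM against 0.74 to 0.80 (gap 0.873). Cxcr6 was lowest in YFP+ m3, at 4.27 log2 CPM against 5.60 to 5.86 (gap 0.838).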

How the results depend on the processing

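The change of each of the 10 members in the 3 comparisons was recomputed under 16 alternatives. Of 480 values 434 kept their direction and their side of the threshold, 20 lost a call, 11 gained one and 15 changed sign, and 18 of the 30 changes were the same under all 16. Every sign change was in a difference that was not called. Skil in YFP+ against unstimulated samples became 0.065 with quantile normalization, 0.081 centred on the sample median, 0.037 with trimmed-mean scaling and 0.025 with voom weights and that scaling, and ran from -0.12 to 0.058 when single replicate labels were left out. Smad2 in that comparison became 0.026 with sample weights and ran from -0.27 to 0.18 without single labels. Smad4 in YFP+ against YFP- samples became 0.069 (quantile), 0.10 (centred), 0.031 (trimmed-mean) and 0.020 (voom). Tgfb1 in YFP+ against YFP- samples became 0.20 (centred), 0.13 (trimmed-mean) and 0.12 (voom), and ran from -0.22 to 0.20 without single labels. The cause was not tested.

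The 5 members called in YFP+ against YFP- samples became 3 in a fit of those 8 samples alone, 3 with no filter on low values, and 3 to 4 without single labels. The 11 called genes of the pathway list in that comparison became 6 with no filter, 7 centred on the sample median, and 6 to 10 without single labels, and the 24 in YFP- against unstimulated samples became 15 to 21 without single labels. Of all calls in YFP- against unstimulated samples 59.1% were higher as deposited and 47.2% without the ribosomal RNA-like features, and in YFP+ against unstimulated samples 45.2% and 36.8%. In YFP+ against YFP- samples 15.1% were higher as deposited, 44.9% with quantile normalization and 50.2% centred on the sample median.

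With a replicate block, 6, 8 and 6 members were called in the 3 comparisons, the addition being Smad2 in YFP+ against YFP- samples (limma adjusted p = 0.047), and the target list gave 17, 17 and 13 calls. Samples with the same label correlated at 0.05 to 0.37 between YFP+ and YFP-, and not all of them correlated best with their own label, so the labels were not taken as pairs. At these depths Acvrl1, Acvr1b and Lrrc32 had under 30 reads in some libraries, which limits their precision.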
